A study of Mus musculus with 12 samples.

Results

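The subunits of the respiratory chain and of ATP synthase were followed in mammary glands of lactating mice without butyrophilin 1a1, a protein of the secretory cell's apical membrane that takes part in the release of milk fat globules. The genes were taken by symbol from the deposited expression table. They are all rows whose name starts with mt- or is a numbered Nduf subunit of the a, b, c, s or v series, an Sdh subunit a to d, or a Uqcr, Cox4 to Cox8 or Atp5 gene. This gave 94 of the 11834 genes in the table, without use of any measured value. Of these, 79 are encoded in the nucleus, with 36 in complex I, 4 in complex II, 8 in complex III, 14 in complex IV and 17 in complex V. The other 15 are encoded in mitochondrial DNA and comprise 13 protein-coding genes and both rRNAs. Transcripts of the 13 are called mitochondrial mRNAs here, although mt-Atp8 and mt-Atp6 are read from one mRNA. Symbols were taken as they stand, so Ndufa4, now counted among the subunits of complex IV, stands with complex I here, and Atp5sl, which is now known as an assembly factor of complex I, stands with complex V.

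Complexes I to IV pass electrons from NADH and succinate to oxygen. Complexes I, III and IV pump protons across the inner mitochondrial membrane, and complex V, the ATP synthase, uses that proton gradient to make ATP. Complex II is built from nuclear genes alone, whereas the other complexes combine nuclear subunits, imported from the cytosol, with a core of proteins made inside the mitochondrion from its own DNA. The lactating gland makes milk protein, lactose and fat and is known for a high demand for ATP and for secretory cells rich in mitochondria.

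PolyA RNA was sequenced from 7 knockout (KO) mice, labelled Btn1a1-/-, and 5 wild-type (WT) mice, all of strain C57BL/6 and in lactation 1, with 1 library per mouse. KO replicates 1, 2, 5, 6 and 7 were taken on day 10 of lactation, KO replicate 3 on day 8 and KO replicate 4 on day 11. Among WT mice, replicates 1, 4 and 5 were at day 10, replicate 2 at day 9 and replicate 3 at day 11. Per the labels, WT mice came from harem breeding, while mutant strains were kept apart through pairs of heterozygotes, and 2 diets were in use without a record of which mouse had which. Genotype, breeding and diet therefore cannot be told apart. The labels name neither the design of the allele nor the part of it that was deleted. Values are log2 CPM (a gene's read count relative to the size of its library, as a logarithm) that the authors had already normalized between libraries. Total reads per library are not in the table, so the depth is unknown and no counting interval is given. Btn1a1 itself stood between 5.10 and 6.02 log2 CPM in KO glands (median 5.66), against 11.03 in 4 WT glands and 11.23 in WT replicate 3 (log2 change -5.43, SE 0.13). In whole glands, fewer cells of a type and less RNA per cell cannot be told apart. Calls (adjusted p under 0.05, defined below) were higher in KO for 4.84% of all genes and lower for 4.52%. The mean of luminal secretory markers differed by -0.01 log2 CPM between KO and WT (1 of 10 called higher, 5 with positive changes). For macrophages it differed by 0.41 (4 of 10 called higher, 9 positive). For basal and myoepithelial cells the difference was 0.31 (5 of 9 called higher, 7 positive). It was 0.08 for white adipocytes (1 of 8 called higher, 4 positive). Endothelial markers differed by -0.21 (1 of 7 called lower, 7 negative). The luminal list includes the gene of highest mean in the table (17.27 log2 CPM). Normalization gave each rank a fixed value, so the luminal mean can hide changes of the most abundant genes. The macrophage mean ran from 0.03 to 0.60 log2 CPM above the WT mean in KO glands and from -0.17 to 0.23 in WT glands, and the basal mean from -0.03 to 0.51 in KO glands and from -0.25 to 0.20 in WT glands. The part of these cells in the results was not tested.

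Most respiratory chain transcripts stood close together in KO and WT glands. Of the 94 genes, 7 were called between genotypes, 5 higher and 2 lower in KO, and all 7 are nuclear genes. A gene was called where limma's moderated test gave an adjusted p under 0.05 over all 11834 genes. The share called was 7.45% of the respiratory chain genes, and 9.36% of all genes were called. In the table as a whole the call was higher in KO for 4.84% of genes and lower for 4.52%. The share among the respiratory chain genes was therefore near that of the table. Of the mitochondrial genes 0 of 15 were called by limma, 0 had an unadjusted p under 0.05, and 0 were called in the authors' deposited table. That table called 8 of the nuclear genes, the same 7 and Atp5g3. The log2 change was smaller than 0.2 in either direction for 69 of the 94 genes (73.4%), against 6820 of the 11834 genes (57.6%). It was positive for 62 and negative for 32 of them, while 5281 genes of the table were positive and 6553 negative. No member was left out for low values; 9 averaged under 3 log2 CPM, of which 0 were called by limma or in the authors' deposited table and 3 had an unadjusted p under 0.05. The median change was 0.05 for nuclear and 0.02 for mitochondrial members, beside -0.03 for all genes. The 2 groups of libraries stood apart without overlap for 7 members (Cox4i1, Cox5b, Atp5e, Atp5g3, Uqcrfs1, Ndufv3 and Ndufa1), which compares with 5.43% of all genes. The values of nuclear members were tighter than those of most genes, with a median SD between libraries of 0.13 log2 CPM in KO and 0.11 in WT, against 0.22 in KO and 0.19 in WT over the table. Of the 79 nuclear members 71 averaged at least 3 log2 CPM, against 5594 of the 11834 genes. No comparison at matched levels was made, so these contrasts are not shown to be particular to the respiratory chain. Among the 77 mitochondrial ribosomal protein genes 89.6% of changes were smaller than 0.2. The plot of all 94 changes gives them by complex.

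**Figure D1:**
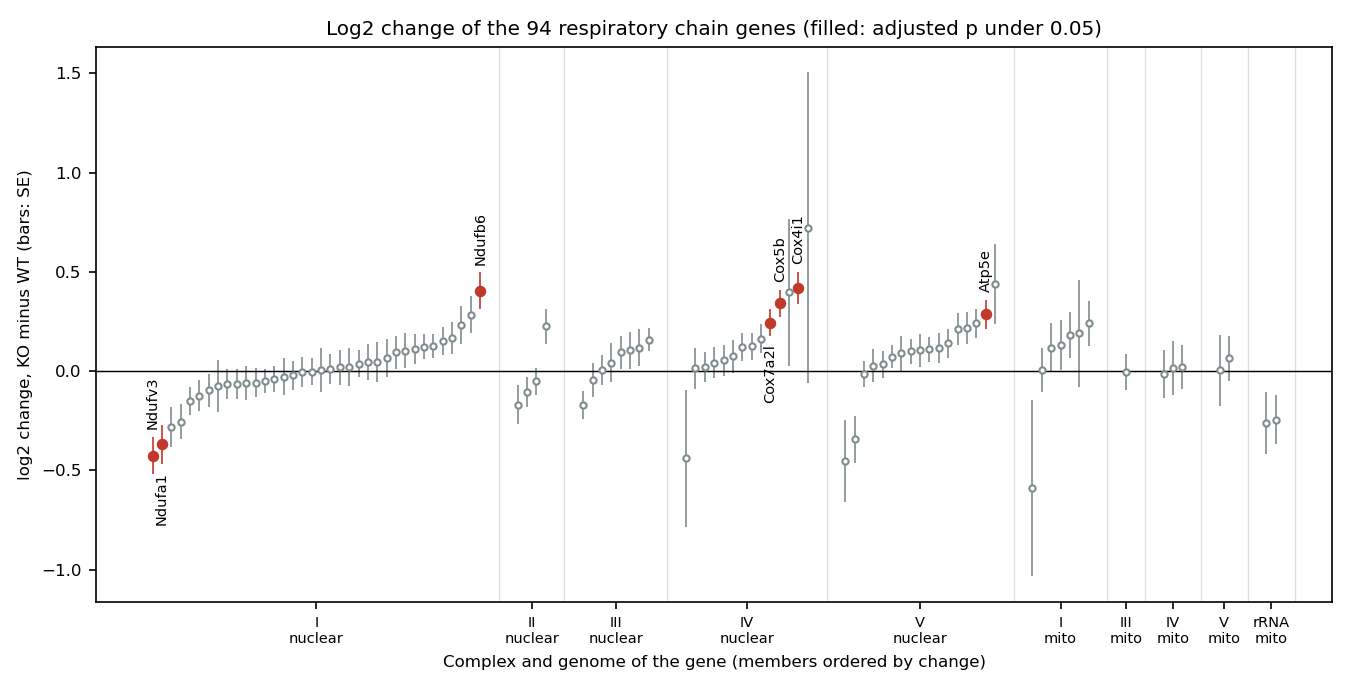
Log2 change (KO minus WT) of each of the 94 genes with its standard error, grouped along the horizontal axis by complex and by nuclear or mitochondrial (mito) coding and ordered by change within each group; filled red points are the 7 called genes and open grey points the other 87. The 3 called genes of complex IV and the 1 of complex V lie above 0, complex I has 1 called gene above and 2 below 0, and the mitochondrial groups have no filled point.

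Complex I, the NADH dehydrogenase, was the complex in which genes were called in both directions. Among its 36 nuclear genes, 1 was called higher and 2 lower (8.33%, beside 9.36% of all genes), 18 had a positive and 18 a negative change, and the median change was 0.00. All 3 called genes encode accessory subunits, which surround the catalytic core. Of the 29 accessory genes 3 were called (10.3%, again near the share of all genes). Of the 7 core genes, which carry the flavin and the iron-sulfur clusters, 0 were called by limma and 0 in the authors' deposited table, with 1 at an unadjusted p under 0.05 and changes between -0.28 and 0.12. Whether core and accessory genes differ was not tested.

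Ndufb6, an accessory subunit of the membrane arm, rose in KO. It stood at 3.66 log2 CPM in the lowest, 3.79 in the median and 3.84 in the highest KO gland, against 3.48, 3.68, 3.38, 3.15 and 3.17 in WT replicates 1 to 5. Of the 7 KO glands, 6 lay above every WT gland, and KO replicate 6, the lowest, lay just under WT replicate 2. The log2 change was 0.41 (SE 0.09, adjusted p = 0.0149), a 1.32-fold higher level, and the exact two-sided permutation p was 0.00253. Ndufb6 is on chromosome 4 (40270591 to 40279421 in mm10, minus strand, 4 exons). It shares 257 of its 659 exonic bases with Smim27 on the opposite strand, and the sources used here do not say whether counting used strand.

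Ndufv3, an accessory subunit of the NADH-binding arm, fell in KO. Its KO glands ran from 4.86 through a median of 5.31 to 5.36 log2 CPM, against 5.67, 5.72, 5.51, 5.69 and 5.57 in WT replicates 1 to 5. Every KO gland lay below every WT gland, and KO replicate 4 was the lowest. Its log2 change was -0.43 (SE 0.09, adjusted p = 0.0130), or 1.34-fold lower, with an exact two-sided permutation p of 0.00126, the smallest this design can give. Its position is chromosome 17 from 31520115 to 31531331 (plus strand, 4 exons). The call held without any single library, while in the day 10 glands alone the log2 change was -0.40 (adjusted p = 0.0551).

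Ndufa1, a small membrane-arm subunit that complex I needs for its assembly, also fell. It had 5.21, 5.63 and 5.76 log2 CPM in the lowest, median and highest KO gland, against 5.85, 5.93, 5.84, 5.99 and 6.11 in WT replicates 1 to 5. Again no KO gland reached the WT range, and KO replicate 4 was lowest. This log2 change was -0.37 (SE 0.10, adjusted p = 0.0297), or 1.29-fold lower, with an exact two-sided permutation p of 0.00505 on the X-linked gene (chromosome X from 37187588 to 37191163, minus strand, 3 exons). Leaving out KO replicate 1 or 2 or WT replicate 1, 2, 4 or 5 ended this call, with adjusted p between 0.0511 and 0.0767 and log2 changes between -0.39 and -0.33. In the day 10 glands alone the log2 change was -0.37 with an adjusted p of 0.0792, and without the trend and robust options of the variance model the adjusted p was 0.0522.

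Ndufs5, an accessory subunit that faces the intermembrane space, came next by p without passing the test. Its KO glands ran from 3.80 through 4.07 to 4.22 log2 CPM, against 3.77, 4.08, 3.60, 3.65 and 3.78 in WT (log2 change 0.28, SE 0.09, adjusted p = 0.0686). WT replicate 2 stood within the KO range and the other WT glands below the KO minimum. Without KO replicate 2 the adjusted p was 0.0446, and without WT replicate 2 it was 0.0307. Ndufa4 had 5.44, 5.77 and 6.11 log2 CPM in the lowest, median and highest KO gland, against 5.40, 5.67, 5.46, 5.62 and 5.47 in WT (log2 change 0.23, SE 0.09, adjusted p = 0.133), and the groups overlapped.

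The promoters of the 3 called complex I genes are shown because these genes were called in opposite directions. Each window spans the RefSeq start of the gene (GRCm38.p6) and lies mostly upstream of it, written 5′ to 3′ on the gene's strand, with matches to the searched motifs in capitals. The windows are chr4:40279372-40279671 (minus strand) for Ndufb6, chr17:31519865-31520164 (plus strand) for Ndufv3 and chrX:37191189-37191488 (minus strand) for Ndufa1.
Ndufb6: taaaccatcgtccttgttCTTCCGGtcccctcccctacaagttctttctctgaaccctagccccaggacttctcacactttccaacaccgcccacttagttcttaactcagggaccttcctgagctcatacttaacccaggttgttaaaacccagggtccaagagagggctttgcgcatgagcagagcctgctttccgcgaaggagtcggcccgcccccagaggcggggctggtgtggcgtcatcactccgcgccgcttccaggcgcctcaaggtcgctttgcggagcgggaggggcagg
Ndufv3: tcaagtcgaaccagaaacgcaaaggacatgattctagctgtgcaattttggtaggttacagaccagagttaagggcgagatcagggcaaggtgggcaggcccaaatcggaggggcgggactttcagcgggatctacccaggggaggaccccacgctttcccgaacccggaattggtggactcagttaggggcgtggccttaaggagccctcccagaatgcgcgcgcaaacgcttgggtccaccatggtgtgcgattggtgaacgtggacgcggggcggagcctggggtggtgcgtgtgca
Ndufa1: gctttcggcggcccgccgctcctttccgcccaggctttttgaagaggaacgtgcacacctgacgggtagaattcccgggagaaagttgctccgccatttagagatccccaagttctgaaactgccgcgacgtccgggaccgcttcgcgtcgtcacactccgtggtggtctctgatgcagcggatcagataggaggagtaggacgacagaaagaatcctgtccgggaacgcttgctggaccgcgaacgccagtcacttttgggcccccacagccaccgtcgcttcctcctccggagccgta
The motifs were the letters GCGCATGC for NRF1, CCGGAAG for ETS factors and AAGATGGCG for YY1, searched on both strands; these factors are known to act on many respiratory chain promoters. The Ndufb6 window holds 1 ETS match on the reverse strand, at position -232 from the start, and the windows of Ndufv3 and Ndufa1 hold no match. RefSeq windows were matched for 67 of the 79 nuclear genes. Of these, 10 hold the NRF1 letters (14.9%, against 3.05% of the 27025 genes with a promoter), 16 the ETS letters (23.9%, against 9.93%) and 8 the YY1 letters (11.9%, against 1.64%). A match is a description of letters and shows neither binding nor use of the site.

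Complex II, succinate dehydrogenase, also belongs to the citric acid cycle. Of its 4 genes 0 were called by limma and 0 in the authors' deposited table, with 1 at an unadjusted p under 0.05, and 3 of the 4 changes were negative. Sdha, the flavin-bearing catalytic subunit, had 6.33, 6.55 and 6.63 log2 CPM in the lowest, median and highest KO gland, against 6.62, 6.74, 6.61, 6.70 and 6.43 in WT (log2 change -0.10, SE 0.07, adjusted p = 0.402). Sdhb, the iron-sulfur subunit, ran from 4.77 through 5.16 to 5.43 in KO, against 5.30, 5.46, 5.40, 5.30 and 5.28 in WT (log2 change -0.17, SE 0.10, adjusted p = 0.286). In both genes the groups overlapped, and for Sdhb KO replicate 2 stood apart at the low end. Sdhc, a membrane anchor, was the member with a positive change, at 4.67, 4.87 and 5.02 in KO, against 4.44, 4.83, 4.64, 4.77 and 4.48 in WT (log2 change 0.23, SE 0.09, adjusted p = 0.113). Sdhd, the other anchor, had 5.25, 5.39 and 5.51 in KO, against 5.39, 5.42, 5.46, 5.56 and 5.34 in WT (log2 change -0.05, SE 0.07, adjusted p = 0.660). Both anchors overlapped between genotypes.

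Complex III, which passes electrons from ubiquinol to cytochrome c, likewise had 0 of 8 nuclear genes called by limma and 0 in the authors' deposited table, with 2 at an unadjusted p under 0.05, and all 8 changes were smaller than 0.2. Uqcrfs1, the Rieske iron-sulfur protein, had 5.34, 5.38 and 5.51 log2 CPM in the lowest, median and highest KO gland, against 5.18, 5.33, 5.21, 5.29 and 5.24 in WT. Each KO gland lay above each WT gland, but the gap was small (log2 change 0.16, SE 0.06, adjusted p = 0.0915, exact two-sided permutation p = 0.00126). Uqcrc2, a core protein, had a negative change, at 6.18, 6.41 and 6.49 in KO, against 6.44, 6.53, 6.55, 6.63 and 6.50 in WT (log2 change -0.17, SE 0.07, adjusted p = 0.134). Uqcrc1, the partner core protein, had 5.44, 5.60 and 5.68 in KO, against 5.33, 5.79, 5.43, 5.37 and 5.48 in WT (log2 change 0.09, SE 0.08, adjusted p = 0.498). Uqcrb, a ubiquinone-binding subunit, ran from 5.29 through 5.49 to 5.85 in KO, against 5.46, 5.34, 5.42, 5.60 and 5.19 in WT (log2 change 0.12, SE 0.09, adjusted p = 0.448). The core proteins and Uqcrb overlapped between the groups.

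Complex IV, cytochrome c oxidase, is the terminal enzyme that reduces oxygen to water. Of its 14 nuclear genes 3 were called, all higher in KO (21.4%, beside 9.36% of all genes), and 13 of the 14 changes were positive, with a median of 0.12. Alternatives were followed gene by gene only for the genes given in full, which leaves out Cox5a, Cox6c, Cox7b and Cox7c. Among the followed genes of those 13, Cox6a1, Cox6a2, Cox6b1 and Cox7a2 had a negative change under at least 1 alternative. Cox4i1, the nuclear subunit at which the enzyme is regulated by ATP, changed most among the called genes that rose. It had 6.81, 6.97 and 7.07 log2 CPM in the lowest, median and highest KO gland, against 6.44, 6.81, 6.39, 6.42 and 6.67 in WT replicates 1 to 5. The groups did not overlap, although KO replicate 2, the lowest, was barely above WT replicate 2. Its log2 change was 0.42 (SE 0.08, adjusted p = 0.00806), a 1.34-fold higher level, with an exact two-sided permutation p of 0.00126. The gene lies on chromosome 8 from 120668222 to 120674207 (mm10, plus strand, 5 exons) and shares 154 of its 1550 exonic bases with Emc8 on the opposite strand. Emc8, at a mean of 2.75 ± 0.08 log2 CPM in KO and 2.55 ± 0.24 in WT (SD, n = 7 and 5), was far lower than Cox4i1 and was not called (log2 change 0.21, SE 0.10, adjusted p = 0.219).

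Cox5b, a subunit on the matrix side, rose in KO as well. Its lowest, median and highest KO glands had 4.64, 4.80 and 4.93 log2 CPM, against 4.54, 4.59, 4.38, 4.37 and 4.40 in WT replicates 1 to 5, without overlap. The log2 change was 0.34 (SE 0.07, adjusted p = 0.00987), or 1.27-fold higher (exact two-sided permutation p = 0.00126; chromosome 1 from 36691449 to 36693681, plus strand, 4 exons). In the day 10 glands alone the log2 change was 0.33 with an adjusted p of 0.0707. Cox7a2l, which joins complexes III and IV into supercomplexes and is known in a shortened form in C57BL/6 mice, had 5.33, 5.55 and 5.66 log2 CPM in KO, against 5.31, 5.35, 5.18, 5.17 and 5.36 in WT. Of the KO glands 6 lay above every WT gland, and the log2 change was 0.24 (SE 0.07, adjusted p = 0.0343), or 1.18-fold higher (chromosome 17 from 83501918 to 83517330, minus strand, 4 exons). This was the call that most often depended on 1 library: leaving out KO replicate 1, 2 or 5 or any of WT replicates 1 to 4 gave adjusted p between 0.0504 and 0.0831, with log2 changes between 0.22 and 0.26. The day 10 glands alone gave a log2 change of 0.25 (adjusted p = 0.147), and the variance model without the trend and robust options an adjusted p of 0.0563.

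**Figure D2:**
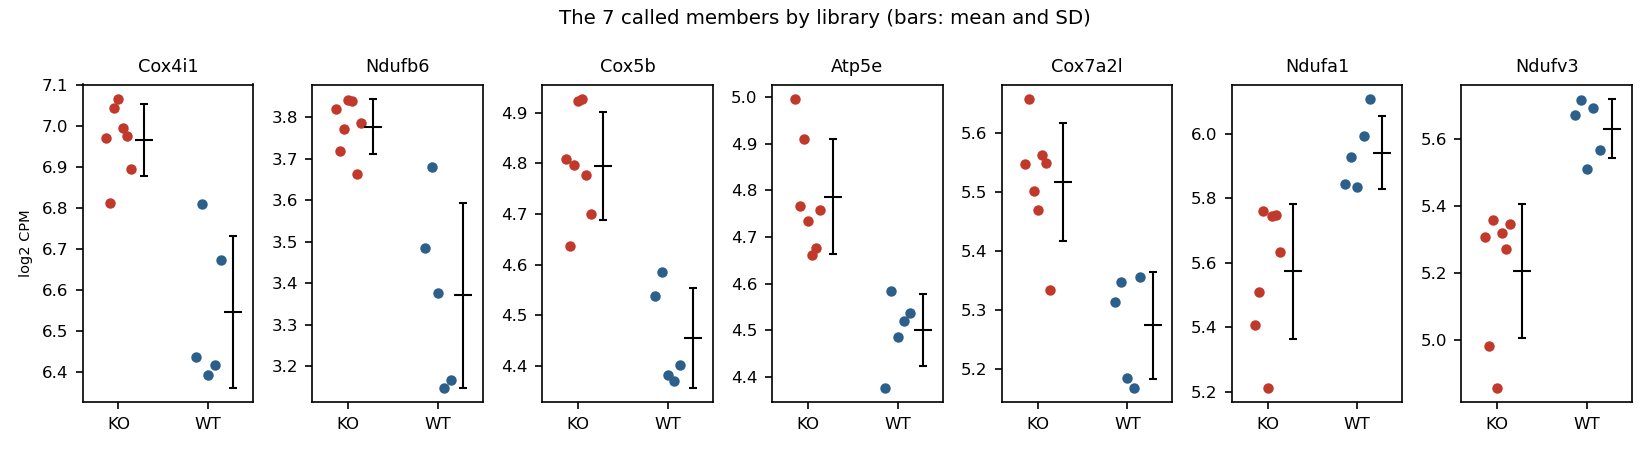
Log2 CPM of the 7 called genes in each library, 7 KO (red) and 5 WT (blue), with the mean and SD of each group beside the points; each panel has its own vertical range. KO points lie above all WT points for Cox4i1, Cox5b and Atp5e and below them for Ndufa1 and Ndufv3, while 1 KO point of Ndufb6 and 1 of Cox7a2l fall within the WT range.

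Several complex IV subunits exist as a widely expressed form and a form of heart, skeletal muscle or brown fat, and the table held rows for 3 such pairs. In each pair the widely expressed form was the abundant one, and none of these genes was called. Cox6a1, the widely expressed form, had 5.61, 6.04 and 6.12 log2 CPM in the lowest, median and highest KO gland, against 5.84, 6.21, 5.69, 6.06 and 5.87 in WT (log2 change 0.01, SE 0.10, adjusted p = 0.946). Its muscle counterpart Cox6a2 ran from -3.53 through 0.62 to 1.57 in KO, against -1.32, -1.34, -0.31, 0.87 and -0.44 in WT (log2 change 0.72, SE 0.78, adjusted p = 0.596), with KO replicate 6 far below the rest. Cox7a2 stood at 5.10, 5.35 and 5.55 in KO, against 5.22, 5.32, 5.16, 5.33 and 5.45 in WT (log2 change 0.07, SE 0.08, adjusted p = 0.603). Its muscle form Cox7a1 had -0.22, 0.88 and 1.65 in KO, against -0.50, 1.63, 0.40, 0.08 and 0.50 in WT (log2 change 0.40, SE 0.37, adjusted p = 0.526). The KO and WT ranges of both pairs overlapped. Cox8a, the widely expressed form of the smallest subunit, was at 5.38, 5.54 and 5.61 in KO, against 5.35, 5.47, 5.11, 5.50 and 5.39 in WT (log2 change 0.16, SE 0.07, adjusted p = 0.165). Cox8b, its form in heart, muscle and brown fat, was at -0.51, 0.22 and 1.16 in KO, against 0.40, 1.99, 0.26, 0.54 and 0.50 in WT (log2 change -0.44, SE 0.35, adjusted p = 0.445), with WT replicate 2 far above the other WT glands. Cox6b1, which helps to dimerize the enzyme, had 6.03, 6.23 and 6.35 in KO, against 6.16, 6.30, 6.07, 6.34 and 6.05 in WT (log2 change 0.02, SE 0.08, adjusted p = 0.880). Cox4i2, Cox6b2 and Ndufa4l2 were not analysed here.

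Skeletal muscle transcripts varied widely between the glands. The mean of 18 muscle markers ran from -1.14 to 2.81 log2 CPM in KO glands, relative to the WT mean, and from -1.61 to 0.97 in WT glands, and 5 of 7 KO glands lay above every WT gland. All 18 markers had a positive change (median 1.20), but 0 were called by limma or in the authors' deposited table, with 1 at an unadjusted p under 0.05. All 18 were detected, with group means from 2.64 to 6.58 log2 CPM in KO and from 1.14 to 5.95 in WT. KO replicate 6 had the lowest muscle mean among KO glands and also the lowest Cox6a2, as the plot of the muscle forms shows. For Cox7a1 and Cox8b the lowest KO gland was KO replicate 2. The highest Cox8b was in WT replicate 2, whose muscle mean was -0.61. With the muscle mean as a covariate, Cox4i1, Cox5b and Ndufb6 were still called, while the adjusted p was 0.0755 for Cox7a2l, 0.106 for Atp5e, 0.0756 for Ndufv3 and 0.136 for Ndufa1, with log2 changes of 0.28, 0.26, -0.36 and -0.31. Of 8 listed brown adipocyte markers 2 were measured, Otop1 and Cidea, and neither was called (log2 changes -0.17, SE 0.20, and -0.11, SE 0.15). Ucp1 was not analysed here. Otop1 averaged 3.28 log2 CPM in KO and 3.45 in WT, and Cidea 10.09 in KO and 10.20 in WT. Which cells of the gland these transcripts come from was not tested, so they do not settle the level of brown fat. In the fit with the muscle covariate the whole table had 286 genes called. Over all 14 nuclear complex IV genes, the mean relative to WT was 0.16 in KO glands (SD 0.23 in KO, 0.15 in WT), and 4 of 7 KO glands lay above every WT gland. Without the muscle forms Cox6a2, Cox7a1 and Cox8b, the mean of the other complex IV nuclear genes was 0.15 ± 0.08 log2 CPM above the WT mean in KO glands, against an SD of 0.08 in WT glands, and 6 of 7 KO glands lay above every WT gland.

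**Figure D3:**
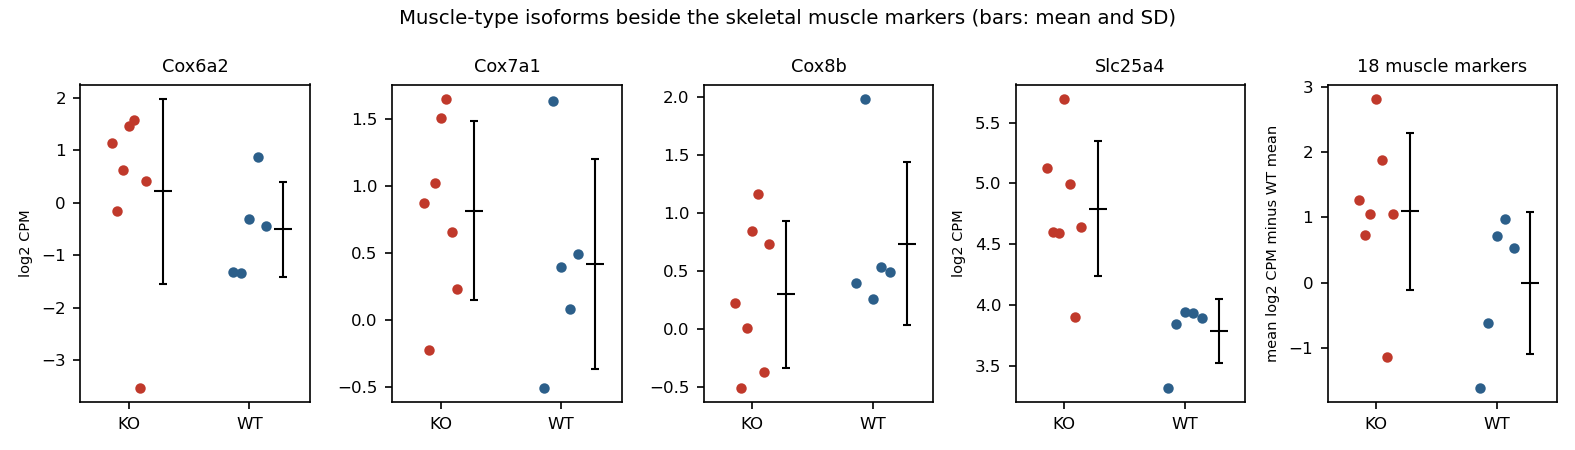
Log2 CPM per library of the muscle-type complex IV forms Cox6a2, Cox7a1 and Cox8b and of the muscle- and heart-type ADP/ATP carrier Slc25a4, beside the mean of 18 skeletal muscle markers relative to the WT mean, for 7 KO (red) and 5 WT (blue) glands with the mean and SD. KO replicate 6 is the lowest KO point for Cox6a2, Slc25a4 and the marker mean, while KO replicate 2 is the lowest for Cox7a1 and Cox8b.

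Complex V had 1 of 17 nuclear genes called, higher in KO (5.88%, beside 9.36% of all genes). Of its changes 14 were positive and 3 negative, with a median of 0.11. The called gene was Atp5e, which encodes the epsilon subunit of the central stalk. It stood at 4.66, 4.76 and 5.00 log2 CPM in the lowest, median and highest KO gland, against 4.38, 4.58, 4.48, 4.52 and 4.54 in WT replicates 1 to 5. The groups did not overlap, and the log2 change was 0.29 (SE 0.07, adjusted p = 0.0236), or 1.22-fold higher (exact two-sided permutation p = 0.00126; chromosome 2 from 174461072 to 174464105, mm10, minus strand, 3 exons). Without WT replicate 1 the adjusted p was 0.0696 and without WT replicate 3 it was 0.0508, with log2 changes of 0.25 and 0.28. In the day 10 glands alone the log2 change was 0.29 with an adjusted p of 0.111.

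The promoter of Atp5e (chr2:174464052-174464351, minus strand, RefSeq on GRCm38.p6) is shown as that of the called complex V gene, with its motif match in capitals.
Atp5e: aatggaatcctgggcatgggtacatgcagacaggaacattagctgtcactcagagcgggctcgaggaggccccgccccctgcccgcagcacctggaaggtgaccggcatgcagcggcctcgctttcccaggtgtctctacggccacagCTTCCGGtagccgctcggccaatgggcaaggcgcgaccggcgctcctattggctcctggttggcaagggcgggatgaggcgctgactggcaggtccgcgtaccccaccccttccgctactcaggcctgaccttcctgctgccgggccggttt
It holds 1 ETS match on the reverse strand, at position -102 from the start, where the Ndufb6 window printed above has its match farther upstream. Of the 5 genes called higher, RefSeq windows were matched for 4, and the windows of Cox5b and Cox7a2l hold no match to the letters searched.

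Atp5g3, one of the genes for the c subunit of the membrane rotor, lay at the edge of the threshold. It had 5.97, 6.15 and 6.40 log2 CPM in the lowest, median and highest KO gland, against 5.93, 5.96, 5.82, 5.83 and 5.93 in WT, without overlap. Its log2 change was 0.24 (SE 0.07, adjusted p = 0.0504), while the adjusted p in the authors' deposited table was 0.0481. The other genes of the same c subunit, Atp5g1 and Atp5g2, were named after their values were seen. The log2 change of Atp5g1 was 0.21 (SE 0.08, adjusted p = 0.104) and Atp5g2, at a mean of 1.13 log2 CPM in KO and 0.69 in WT, one of 0.44 (SE 0.20, adjusted p = 0.182). Atp5k, the e subunit that helps ATP synthases dimerize, had 4.71, 5.04 and 5.16 in KO, against 4.85, 4.91, 4.67, 4.65 and 4.83 in WT (log2 change 0.22, SE 0.08, adjusted p = 0.102), and KO replicate 2 was the gland that fell among the WT values. Without that gland its adjusted p was 0.0396. Atp5sl ran from 2.24 through 2.66 to 2.98 in KO, against 2.88, 3.02, 3.02, 3.04 and 2.83 in WT (log2 change -0.34, SE 0.12, adjusted p = 0.0842), with an overlap. Without KO replicate 3 its adjusted p was 0.0346. Among the subunits of the catalytic head, Atp5b, the catalytic beta subunit, gave a log2 change of 0.11 (SE 0.08, adjusted p = 0.438) and Atp5a1, its partner alpha subunit, one of -0.02 (SE 0.07, adjusted p = 0.910); both were chosen for their role and lie outside the naming rule.

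The 13 protein-coding mitochondrial genes are read as long transcripts of the circular genome, which are then cut. Of these genes, 12 are read from one strand and mt-Nd6 from the other, and none was called. Their changes lay between -0.59 and 0.24, and SEs between 0.09 and 0.45. mt-Co1, the catalytic subunit of complex IV, was the most abundant, at 12.53, 12.91 and 12.91 log2 CPM in the lowest, median and highest KO gland, against 12.91, 12.91, 12.53, 12.91 and 12.91 in WT (log2 change 0.02, SE 0.11, adjusted p = 0.928). Its value was identical in 10 of the 12 libraries, because quantile normalization gives each rank a fixed value, so a change that left the rank of mt-Co1 in place would not be visible here. The other core subunits of complex IV were mt-Co2, at 8.82, 9.32 and 9.45 in KO, against 9.45, 9.13, 9.04, 9.52 and 9.07 in WT (log2 change -0.01, SE 0.12, adjusted p = 0.957), and mt-Co3. mt-Co3 had 8.28, 8.70 and 9.13 in KO, against 8.87, 8.66, 8.52, 8.96 and 8.42 in WT (log2 change 0.02, SE 0.14, adjusted p = 0.958). mt-Cytb, the catalytic cytochrome b of complex III, had 11.56, 11.62 and 11.79 in KO, against 11.62, 11.79, 11.62, 11.79 and 11.56 in WT (log2 change -0.00, SE 0.09, adjusted p = 0.988). In these 4 genes the KO and WT ranges overlapped almost entirely.

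The 7 mitochondrial subunits of complex I form its proton-pumping membrane arm. Their median change was 0.13, 6 of the 7 were positive, and the groups overlapped in all 7. Of those 6, mt-Nd6 and mt-Nd4l had a negative change under at least 1 alternative. mt-Nd2 had the smallest p, with 10.19, 10.36 and 10.59 log2 CPM in the lowest, median and highest KO gland, against 10.12, 10.16, 10.12, 10.51 and 9.81 in WT (log2 change 0.24, SE 0.11, adjusted p = 0.192). mt-Nd1 ran from 10.66 through 11.03 to 11.23 in KO, against 10.75, 10.75, 10.86, 11.23 and 10.75 in WT (log2 change 0.12, SE 0.12, adjusted p = 0.576). mt-Nd4 was at 10.51, 10.86 and 10.94 in KO, against 10.59, 10.66, 10.51, 11.11 and 10.36 in WT (log2 change 0.13, SE 0.13, adjusted p = 0.539). WT replicate 4 was the highest and WT replicate 5 the lowest WT gland for mt-Nd2 and mt-Nd4. mt-Nd5 had 9.95, 10.05 and 10.25 in KO, against 10.05, 10.08, 9.85, 10.16 and 9.45 in WT (log2 change 0.18, SE 0.12, adjusted p = 0.338). mt-Nd6 had 7.73, 7.86 and 8.05 in KO, against 8.07, 7.99, 7.63, 8.16 and 7.50 in WT (log2 change 0.01, SE 0.11, adjusted p = 0.982). Its mRNA lies on the minus strand (chrM:13552-14070) and overlaps the end of mt-Nd5 (chrM:11742-13565) from the other side, and in human cells it is known to lack a long poly(A) tail. mt-Nd4l had 3.94, 5.11 and 5.69 in KO, against 5.22, 4.55, 4.98, 5.33 and 4.38 in WT (log2 change 0.19, SE 0.27, adjusted p = 0.699), and KO replicate 6 stood apart as the lowest. mt-Nd3 was the least abundant and most variable, at 1.44, 2.65 and 3.65 in KO, against 4.08, 1.87, 3.99, 3.15 and 3.53 in WT (log2 change -0.59, SE 0.45, adjusted p = 0.430).

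The ATP synthase subunits of the mitochondrial genome, mt-Atp8 and mt-Atp6, are read from one mRNA whose reading frames overlap. The shared 43 bases (chrM:7927-7969, mm10, plus strand) are shown because reads within them belong to both genes, with the first codon of mt-Atp6 and the last codon of mt-Atp8 in capitals.
mt-Atp8 and mt-Atp6: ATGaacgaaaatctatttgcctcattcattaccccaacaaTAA
mt-Atp8, of the membrane part of the enzyme, had 8.52, 8.89 and 9.45 log2 CPM in the lowest, median and highest KO gland, against 9.13, 8.82, 8.34, 9.36 and 8.76 in WT (log2 change 0.00, SE 0.18, adjusted p = 0.991). mt-Atp6, the proton channel subunit, had 8.34, 8.73 and 9.04 in KO, against 8.57, 8.70, 8.54, 8.82 and 8.70 in WT (log2 change 0.06, SE 0.11, adjusted p = 0.755). Neither separated KO from WT glands. mt-Nd4l and mt-Nd4 likewise share 7 bases (chrM:10167-10173). The sources used here do not say how reads in the shared bases were assigned.

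Both mitochondrial rRNAs had negative changes that did not pass the test. mt-Rnr1, of the small mitoribosomal subunit, ran from 5.98 through 6.52 to 6.83 log2 CPM in KO, against 6.80, 6.71, 6.57, 6.84 and 6.58 in WT (log2 change -0.24, SE 0.12, adjusted p = 0.225). mt-Rnr2, of the large subunit, ran from 6.35 through 7.00 to 7.49 in KO, against 7.34, 7.19, 7.10, 7.54 and 7.15 in WT (log2 change -0.26, SE 0.16, adjusted p = 0.305). For both, KO replicate 4 was the lowest and KO replicate 6 the highest KO gland, and for their mean 4 of 7 KO glands lay below every WT gland. The libraries were selected for polyA RNA, so the rRNA left in them depends on that selection as well as on its level in the tissue.

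**Figure D4:**
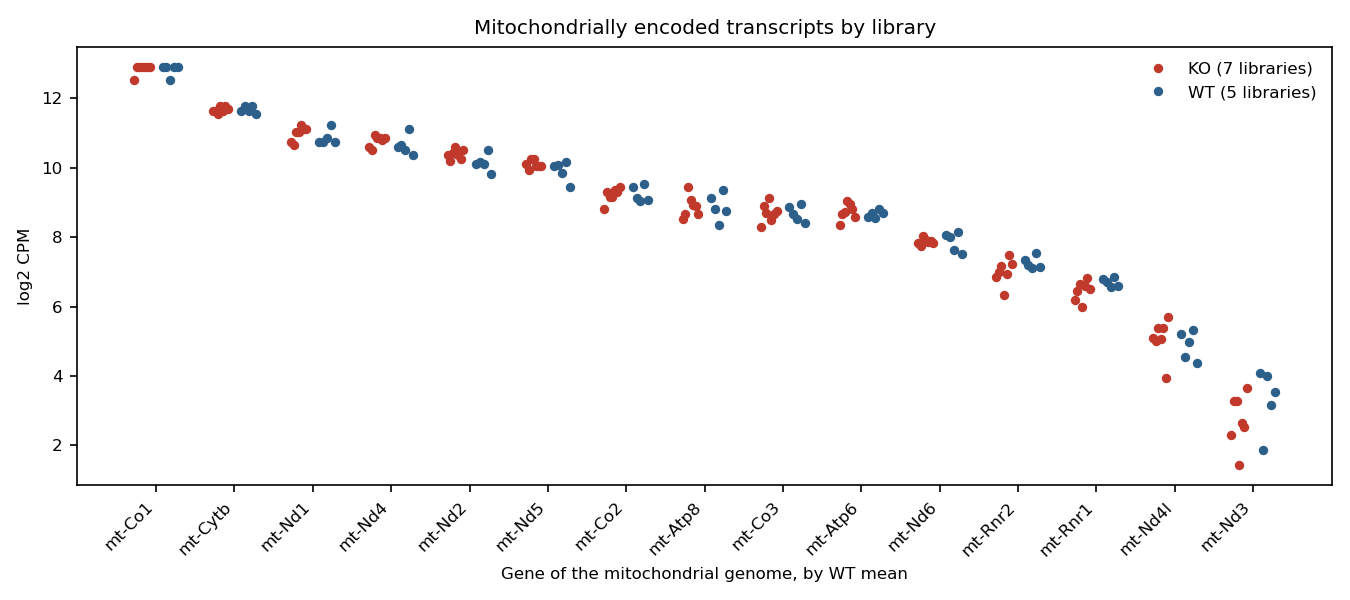
Log2 CPM of the 15 mitochondrially encoded genes in each of 7 KO (red) and 5 WT (blue) libraries, ordered along the horizontal axis by the WT mean. KO and WT points overlap for every gene, from mt-Co1 near 12.91 log2 CPM to mt-Nd3, which spreads most.

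Together the 13 mitochondrial mRNAs took 1.94% ± 0.14 of the summed CPM in KO glands and 1.87% ± 0.18 in WT glands (SD, n = 7 and 5), with ranges of 1.67% to 2.06% in KO and 1.65% to 2.13% in WT. Of this, mt-Co1 alone took 0.75% in KO and 0.74% in WT, with an identical value in 10 of the 12 libraries. Quantile normalization therefore set part of this share in advance, and the balance between the genomes given below has the same limit. The 79 nuclear genes took 0.339% ± 0.017 in KO and 0.326% ± 0.015 in WT. The balance between the genomes, given as the mean log2 CPM of nuclear genes minus that of mitochondrial mRNAs, was -4.29 ± 0.15 in KO and -4.31 ± 0.22 in WT, a difference of 0.02 that is smaller than the SD within either group. In the day 10 glands alone this difference was 0.13 and the median change of the mitochondrial genes -0.08, and under cyclic loess the difference was -0.008. Leaving out 1 library gave a difference between -0.04 and 0.08, so its direction is not settled. The balance ran from -4.45 to -4.02 in KO and from -4.56 to -4.06 in WT. By complex, the mean of the nuclear genes relative to WT was -0.00 for complex I (SD 0.08 in KO, 0.08 in WT), -0.02 for complex II (0.12 in KO, 0.10 in WT), 0.04 for complex III (0.08 in both) and 0.08 for complex V (0.07 in KO, 0.05 in WT). For complex V 3 of 7 KO glands lay above every WT gland, for complex III 1 did, and for complexes I and II 0 did. KO replicate 2 had the lowest mean among KO glands in complexes I, II, III and V, and WT replicate 2 the highest among WT glands, as the plot of these means shows.

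**Figure D5:**
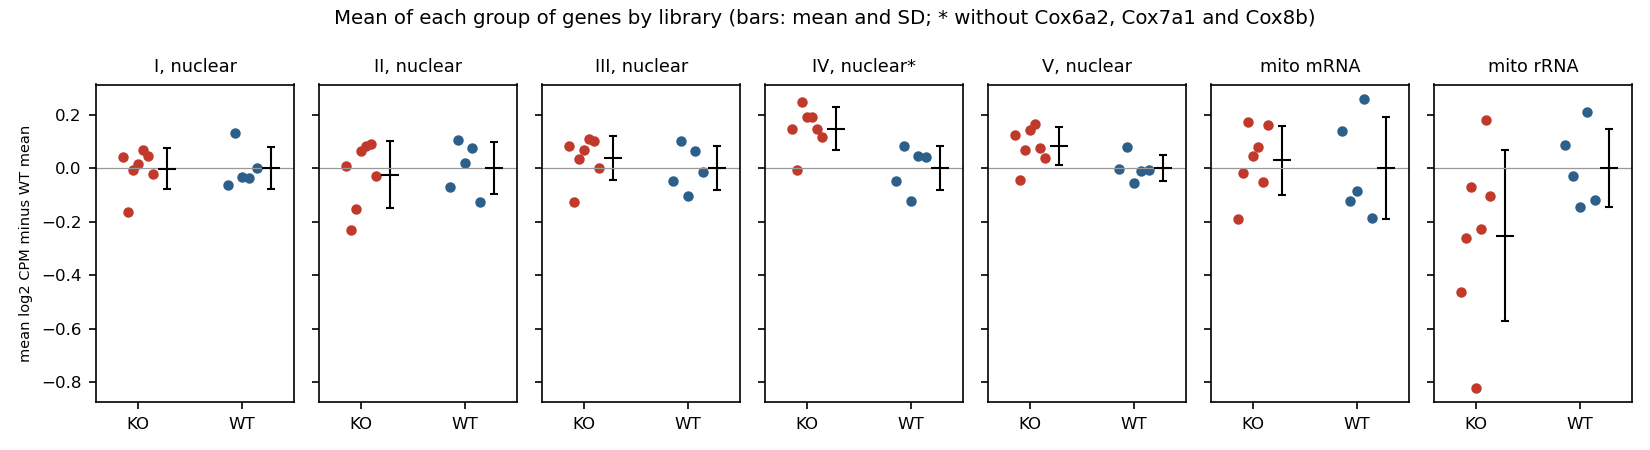
Mean log2 CPM of the genes of each complex and genome in each library, relative to the WT mean of the same genes, for 7 KO (red) and 5 WT (blue) glands with the mean and SD of each group; complex IV is drawn without Cox6a2, Cox7a1 and Cox8b. Of the KO points of complex IV 6 of 7 lie above all WT points, and the mitochondrial rRNA of KO replicate 4 is the lowest point, at -0.82.

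Levels can be compared between genes only per length, and on the scale of log2 CPM per kilobase of transcript the median of the mitochondrial mRNAs was well above that of the nuclear genes. It was 9.78 in KO and 9.79 in WT for the mRNAs, and the median of the 79 nuclear genes 5.04 in KO and 5.09 in WT. Among protein-coding mitochondrial genes the order of mean levels ran from mt-Co1 (12.23 in KO, 12.20 in WT) over mt-Cytb (11.48 in both) and mt-Atp8 (11.18 in both) down to mt-Nd3 (4.26 in KO, 4.85 in WT), which in KO lay under the median of the nuclear complex I genes. mt-Atp6, read from the same mRNA as mt-Atp8, stood at 9.29 in KO and 9.22 in WT, so this is an order of genes and not of separate molecules. Within the nuclear genes, the median level per kilobase was 4.51 in KO and 4.48 in WT for complex I, 4.98 in KO and 5.11 in WT for complex II, and 5.62 in KO and 5.71 in WT for complex III. It was higher for complex V, at 5.97 in KO and 5.79 in WT, and highest for complex IV, at 6.24 in KO and 6.12 in WT. The transcript length is that of 1 annotated transcript a gene, and the level of a gene with several transcripts depends on that choice. Long transcripts with a short coding part were used for Atp5g1 (4715 bases, 408 of them coding) and Ndufb2 (4371 bases, 315 of them coding). Short mRNAs such as mt-Atp8 depend most on fragment selection.

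Genes that work beside the subunits were counted from lists of carriers, assembly factors and regulators. Of 10 measured subunits and carriers outside the naming scheme 1 was called, higher in KO (10%, beside 9.36% of all genes), and the median change was 0.18. That gene was Slc25a4, the ADP/ATP carrier form of muscle and heart, at 3.90, 4.64 and 5.70 log2 CPM in the lowest, median and highest KO gland, against 3.32, 3.84, 3.95, 3.94 and 3.89 in WT (log2 change 1.01, SE 0.24, adjusted p = 0.0250), with KO replicate 6 inside the WT range. The gland with its lowest KO value was also the one with the lowest muscle mean, and the part of muscle in this difference was not tested. For Slc25a3, the phosphate carrier that supplies ATP synthase, the log2 change was 0.20 (SE 0.06, adjusted p = 0.0548), and each KO gland lay above each WT gland. The adjusted p of Slc25a3 in the authors' deposited table was 0.0477. That table thus called 2 genes of this list, both higher in KO.

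The 4 lists of assembly factors had negative median changes and 0 genes called by limma. Over all genes the median change was also negative, at -0.03, and 9.36% were called. For complex I 0 of 14 were called by limma (median change -0.10, 3 at an unadjusted p under 0.05, 0 in the authors' deposited table), for complexes II and III 0 of 10 (median -0.03, 1 and 0), and for complex V 0 of 4 (median -0.13, 0 and 0). For complex IV it was 0 of 22 (median -0.05, 1 at an unadjusted p under 0.05), while the authors' deposited table called 1. The smallest p values in these lists belonged to Ndufaf5 (log2 change 0.43, adjusted p = 0.103) and Nubpl (-0.50, adjusted p = 0.106) for complex I, and to Cox20 (-0.38, adjusted p = 0.0699) for complex IV. Ndufaf5 modifies a core subunit, Nubpl inserts iron-sulfur clusters and Cox20 is a chaperone of mt-Co2. Among 27 genes of mitochondrial DNA upkeep and transcription 2 fell and 0 rose (7.41% called, beside 9.36% of all genes in either direction and 4.52% lower). Polg2, the accessory subunit of the mitochondrial DNA polymerase, had -0.29, 0.22 and 0.61 log2 CPM in the lowest, median and highest KO gland, against 0.92, 0.98, 1.19, 0.76 and 1.14 in WT (log2 change -0.86, SE 0.18, adjusted p = 0.0112), without overlap. Hsd17b10, a subunit of mitochondrial RNase P that trims tRNAs from the long mitochondrial transcripts, had 3.41, 3.79 and 3.99 in KO, against 4.00, 4.23, 4.11, 4.06 and 4.15 in WT (log2 change -0.33, SE 0.09, adjusted p = 0.0364), also without overlap.

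Of 77 mitochondrial ribosomal protein genes 2 fell and 0 rose (2.60% called, beside 9.36% of all genes in either direction and 4.52% lower), with a median change of -0.02. The log2 changes were -0.25 for Mrpl30 (SE 0.07, adjusted p = 0.0421) and -0.34 for Mrps31 (SE 0.10, adjusted p = 0.0485). Among 11 measured regulators of mitochondrial genes 0 were called by limma (beside 9.36% of all genes), with 2 at an unadjusted p under 0.05 and 0 in the authors' deposited table. Ppara, a fatty-acid sensing nuclear receptor, showed a log2 change of -0.77 (SE 0.25, adjusted p = 0.0682), and Sp1, a general transcription factor, one of -0.17.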

How the data were processed

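Per the submitters' processing notes, the upstream tools include STAR 2.5.2b and RSEM 1.3.0, Trimmomatic 0.33, bcl2fastq 2.17 and limma 3.34.5, and the builds mm10 and hg19 are named with no role. The 12 library columns the authors deposited hold log2 CPM, and the deposited group means and log2 fold change are on the same log2 scale. The deposited table also holds a score (the moderated t statistic, and a signed fold change), the SD of each group, and the authors' p-value and adjusted p-value. The deposited log2 values were quantile-normalized, as 67.1% of ranks differed by less than 0.01 log2 between libraries and each library summed to 988803 to 988808 CPM. How low genes were filtered, how strand and multiply matching reads (overlapping genes, pseudogenes, nuclear copies of mitochondrial DNA) were counted, and the annotation used are not given in the sources used here.

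Here limma 3.58.1 in R 4.3.3 was fitted to all 11834 genes by genotype, with trend and robust eBayes and Benjamini-Hochberg adjustment, and genes were called at an adjusted p under 0.05. SEs come from that fit and SDs lie between libraries. Permutation tests are exact and two-sided, with a smallest p of 0.00126. The procedure was tested on simulated data. A group mean of genes is the mean log2 CPM minus the WT mean. The members and lists were chosen with earlier results of these data known. Genes given in full are the isoform pairs, the 4 nuclear members of smallest p in each complex and the mitochondrial mRNAs, and up to 2 genes of smallest p come from each accompanying list; those outside this rule are said to be so. Positions are those of GENCODE M21 (mm10), matched for all 94 genes, and promoters those of RefSeq (GRCm38.p6), matched for 67 of 79 nuclear genes. Python 3.11.15 and matplotlib 3.10.9 joined annotation and drew figures. Alternatives were a replicate block, lactation day, day 10 glands alone, other normalizations, filters on low values, variance models, library weights, a muscle covariate, a stricter threshold, the authors' statistics and leaving out each library. No pseudocount was added, since the values were already logged, and no count model was used.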

Additional observations from a re-analysis of the deposited data

Results flagged for a closer look

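In 9 of 104 groups of values, 1 library stood far from the others of its genotype by Dixon's ratio; chance flags about 1 in 20 groups. Among nuclear genes, Cox6a2 was -3.53 log2 CPM in KO replicate 6, with the next KO gland at -0.16. Cox8b was 1.99 log2 CPM in WT replicate 2, with the next WT gland at 0.54. Sdhb was 4.77 log2 CPM in KO replicate 2, where the next was 5.16. The mean of the nuclear complex I genes in KO replicate 2 was -0.16 relative to WT, and the next was -0.02. Among mitochondrial genes, mt-Co1 was 12.53 log2 CPM in KO replicate 1 and 12.53 in WT replicate 3, with all other libraries at 12.91. The mean of the mitochondrial complex IV genes in KO replicate 1 was -0.38 relative to WT, with the next at -0.00. mt-Nd1 was 11.23 log2 CPM in WT replicate 4, with the next WT gland at 10.86, and mt-Nd4l was 3.94 in KO replicate 6, with the next KO gland at 5.00. None of these is a called gene.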

How the results depend on the processing

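The count of mitochondrial genes called stayed at 0 in both directions under every alternative run. Of the nuclear genes, 5 were called higher and 2 lower. In the day 10 glands alone these counts were 2 and 0, with the muscle mean as a covariate 3 and 0, at an adjusted p under 0.01 they were 2 and 0, and without the trend and robust options 4 were higher and 1 lower, as Cox7a2l and Ndufa1 lost their calls. Leaving out 1 library gave 3 to 7 higher and 1 to 3 lower. Genes called in the whole table fell to 268 in the day 10 glands (8 libraries), 286 with the muscle covariate and 249 at an adjusted p under 0.01, and lay between 559 (without WT replicate 1) and 1327 (without KO replicate 6) when 1 library was left out; the cause of these lower counts was not tested. Apart from the stricter threshold, Cox4i1 and Ndufb6 kept their call in 24 of 24 alternatives, Cox5b in 23, Ndufv3 in 22, Atp5e in 19, Ndufa1 in 15 and Cox7a2l in 14. These totals, and the comparisons below, include quantile normalization and median centring. As the values were already quantile-normalized, both could change little. They called 1108 and 1106 genes, with the same 7 members. Alternatives were compared gene by gene only for the genes given in full. Of 952 such comparisons, 853 kept direction and side of the threshold, 27 lost and 13 gained a call, and 59 changed sign. The sign changes lie in 12 genes, none of them a called gene, and the smallest adjusted p at one was 0.208. The log2 change turned to -0.039 for Cox6a1 with the replicate number as a replicate block. With lactation day as a covariate it was -0.0030 for Cox6a1, -0.026 for mt-Atp8, 0.00098 for mt-Cytb and -0.0080 for mt-Nd6. In the day 10 glands it was -0.019 for Cox6b1, -0.031 for Cox7a2, -0.028 for mt-Atp6, -0.35 for mt-Atp8, -0.075 for mt-Co1, -0.13 for mt-Co3, 0.017 for mt-Cytb and -0.079 for mt-Nd6. Cyclic loess gave 0.034 for mt-Co2 and 0.054 for mt-Cytb, and library weights gave -0.030 for mt-Atp8, 0.0038 for mt-Co2, -0.033 for mt-Co3 and -0.012 for mt-Nd6. The muscle covariate gave -0.51 for Cox6a2, -0.015 for Cox6b1, 0.030 for mt-Co2, -0.0063 for mt-Co3, 0.0021 for mt-Cytb and -0.022 for mt-Nd4l. Leaving out 1 library gave -0.046 to 0.082 for Cox6a1, -0.011 to 0.062 for Cox6b1, -0.13 to 0.12 for mt-Atp8, -0.053 to 0.075 for mt-Co1, -0.066 to 0.056 for mt-Co2, -0.056 to 0.086 for mt-Co3, -0.032 to 0.025 for mt-Cytb and -0.086 to 0.078 for mt-Nd6. Atp5g3 gained a call under cyclic loess, both filters, library weights, the authors' statistics and without KO replicate 5 or 6. The median changes and the difference between the genomes moved by less than the SD between libraries, although the mitochondrial median and the difference, both near 0, changed sign under some alternatives. The replicate numbers did not pair the samples (correlations of same-numbered deviations from -0.17 to 0.21); with the number as a replicate block 7 members were called, 6 of them shared, Cox6a2 gained (log2 change 1.43, adjusted p = 0.0267) and Atp5e lost (adjusted p = 0.0694). Depth is unknown, and quantile normalization fixes the value of each rank, which limits what the most abundant transcripts can show.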
